A study of Mus musculus with 9 samples.

Results

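The 8 genes described here encode Krüppel-like factors (KLFs), namely Klf2, Klf3, Klf6, Klf7, Klf10, Klf11, Klf12 and Klf13. They were taken by symbol from a fixed list of family members that leaves out Klf4 and Klf9. All 8 were among the 24054 genes counted in the files, and all 8 were among the 14452 genes tested. Their mRNA was sequenced from sorted type 2 dendritic cells (DC2) of the spleen, in 9 libraries with 3 per group. All groups came from C57BL/6 mice carrying Clec9a-Cre and a Rosa-tdTomato reporter on both alleles (Clec9a Cre/Cre Rosa tdTomato/tdTomato), in which TOMATO (TOM) marks cells whose ancestors expressed Clec9a, a gene of dendritic cell progenitors and type 1 dendritic cells. The groups were young TOM+ cDC2 and young TOM- DC2, both at postnatal day 8, and adult TOM+ cDC2, from mice of 9 weeks for library 1 and 8 weeks for libraries 2 and 3. No adult TOM- group was part of these samples, so age was compared within TOM+ cells, and the comparison of young TOM- DC2 with adult TOM+ cDC2 differed in age and TOM status together, which cannot be told apart. Spleens of several young mice were pooled before sorting. A history of Clec9a expression does not label every cell of the lineage, so TOM- cells could include unlabelled descendants of the same progenitors.

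KLFs are zinc finger transcription factors that bind GC boxes and CACCC elements in DNA. Some members mainly activate transcription and others recruit corepressors such as CtBP or SIN3A, so members that compete for the same sites can act in opposite directions. In leukocytes the family is best known for Klf2, which holds lymphocytes in quiescence and controls their trafficking, and for restraint of inflammatory activation in myeloid cells. Several members, among them Klf2, Klf6 and Klf10, are also early response genes whose mRNA changes quickly after stimulation.

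Reads on genes ranged from 12783252 to 22809401 per library. The cDC2 marker list was high in all 9 libraries, with a summed level of 58785 to 96112 TPM (transcript abundance per length, scaled to a fixed total per library), whereas of other cells' markers Clec9a (cDC1), Pax5 and Ebf1 (B cells) and Cdh5 (endothelium) were under 1 TPM throughout. Other genes of the same lists were detected, such as Batf3 at 152 to 194 TPM and Xcr1 at 2.43 to 3.79 TPM for cDC1, Cd79b at 25.3 to 68.2 TPM for B cells and Pecam1 at 44.3 to 57.7 TPM for endothelium. The authors state that mice with Cre on both Clec9a alleles lack functional Clec9a protein. The Clec9a level is thus no measure of cDC1 content here. Marker sums of other cells were higher in young TOM- DC2 than in young TOM+ cDC2 for the lists of ILC3 (30.7 to 38.9 against 4.9 to 5.6 TPM), macrophages (284 to 347 against 174 to 223 TPM), T cells (45.7 to 50.1 against 28.0 to 31.3 TPM) and B cells (76.9 to 89.2 against 62.3 to 71.4 TPM), and their part in the results below was not tested. Most of the T cell sum was Cd5, with means of 35.3 TPM in young TOM- DC2 and 25.2 TPM in young TOM+ cDC2. Of the T cell list only Cd247 passed the test between these groups. Cd3d, Cd3e and Cd3g did not pass, with means of 0.54, 0.67 and 0.39 TPM in young TOM- DC2 and 0.64, 0.55 and 1.01 TPM in young TOM+ cDC2. Neutrophil and erythroid sums were highest in young TOM- library 1, at 22.6 and 11.6 TPM. The first library of each group stood apart in the heat shock gene Hspa1a, at 1485 TPM against 474 and 573 TPM in young TOM+ cDC2, at 1217 against 365 and 422 TPM in young TOM- DC2 and at 1169 against 364 and 215 TPM in adults. In the 2 young groups this library also held the highest or lowest level of several KLF genes, as given beside each. Because whole populations were sequenced, fewer cells expressing a gene and less RNA per cell cannot be told apart.

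Promoter sequences are shown for Klf2 and Klf3, which passed the test in both comparisons with adults, and for Klf6, whose level followed that of Klf2. Klf7 also passed in both comparisons, and its sequence is not shown. Klf7 lies on chromosome 1 (chr1:64029448-64122345), Klf3 on chromosome 5 (chr5:64803521-64832901), Klf2 on chromosome 8 (chr8:72319062-72321654) and Klf6 on chromosome 13 (chr13:5861489-5870393). The other members were Klf13 (chr7:63886351-63938915), Klf11 (chr12:24651371-24662782), Klf12 (chr14:99866181-100285891) and Klf10 (chr15:38291464-38300711). Each sequence is 110 bases of the gene's own strand, 5′ to 3′, from upstream of the annotated starts (RefSeq, GRCm38.p6). Capitals mark the searched letters on either strand, which were GGGCGG (GC box), CACCC (read as GGGTG on the other strand), CCAAT (read as ATTGG) and a MEF2 site (CTA, any 4 bases, then TAG). In Klf3 one GGGCGG overlaps a GGGTG. The windows are chr8:72318923-72319032 on the plus strand for Klf2, chr13:5861372-5861481 on the plus strand for Klf6 and chr5:64803278-64803387 on the plus strand for Klf3.
Klf2: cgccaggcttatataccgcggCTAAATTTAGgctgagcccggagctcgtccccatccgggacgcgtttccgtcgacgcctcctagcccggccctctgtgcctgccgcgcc
Klf6: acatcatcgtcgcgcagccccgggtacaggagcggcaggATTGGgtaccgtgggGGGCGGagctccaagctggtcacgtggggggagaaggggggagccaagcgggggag
Klf3: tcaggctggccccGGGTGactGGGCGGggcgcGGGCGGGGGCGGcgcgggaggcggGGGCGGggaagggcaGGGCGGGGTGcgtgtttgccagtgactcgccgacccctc

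In the full window of 300 bases, from 250 before to 50 after the start, 7 of the 8 genes matched an entry, all but Klf10. For Klf7 the start in that table lies inside the longest annotated span of the gene. GGGCGG was found 6 times for Klf3, 4 times for Klf11, 3 times for Klf13, 2 times for Klf2, 1 time each for Klf6 and Klf7, and not for Klf12, while 35.7% of all 32851 promoter windows held it. CACCC was found 5 times for Klf3, 3 times for Klf7 and 1 time each for Klf2, Klf12 and Klf13, against 57.5% of all windows with a match. CCAAT was found 4 times for Klf6 and 2 times each for Klf11 and Klf13, against 37.4% of all windows. The MEF2 letters were found 1 time for Klf2 and for no other of the 7 genes, against 3.69% of all windows. MEF2 factors are known to drive Klf2 downstream of the kinase ERK5, and the match here is a description of letters only.

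Levels of the 8 genes spanned 0.02 to 670.1 TPM, and Klf2 and Klf6 together made up most of the summed TPM of these 8 genes in every library. In young cells of either kind Klf6 had the highest mean level (283 ± 70.2 TPM in TOM+ cDC2 and 304 ± 70.5 TPM in TOM- DC2, SD, n = 3) and Klf2 followed (236 ± 86.5 and 214 ± 87.9 TPM). In adults Klf2 came first with 477 ± 190.9 TPM and Klf6 second with 397 ± 87.1 TPM. The ranges of Klf2 and Klf6 overlapped in each group, so their order did not exceed the spread between libraries. Klf3, Klf10 and Klf13 followed in that order in all 3 groups. In both young groups the ranges of these 3 genes were separate, whereas in adults Klf3 overlapped with Klf10 and Klf10 with Klf13. Klf7 and Klf11 lay between 9.66 and 21.1 TPM, with overlapping ranges in the young groups and Klf7 above Klf11 in every adult library. Klf12 was lowest, under 1 TPM in all libraries. By TPM among all genes of the files, Klf2 ranked on average in the top 3.33% in young TOM+ cDC2, the top 3.87% in young TOM- DC2 and the top 1.39% in adults.

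**Figure D1:**
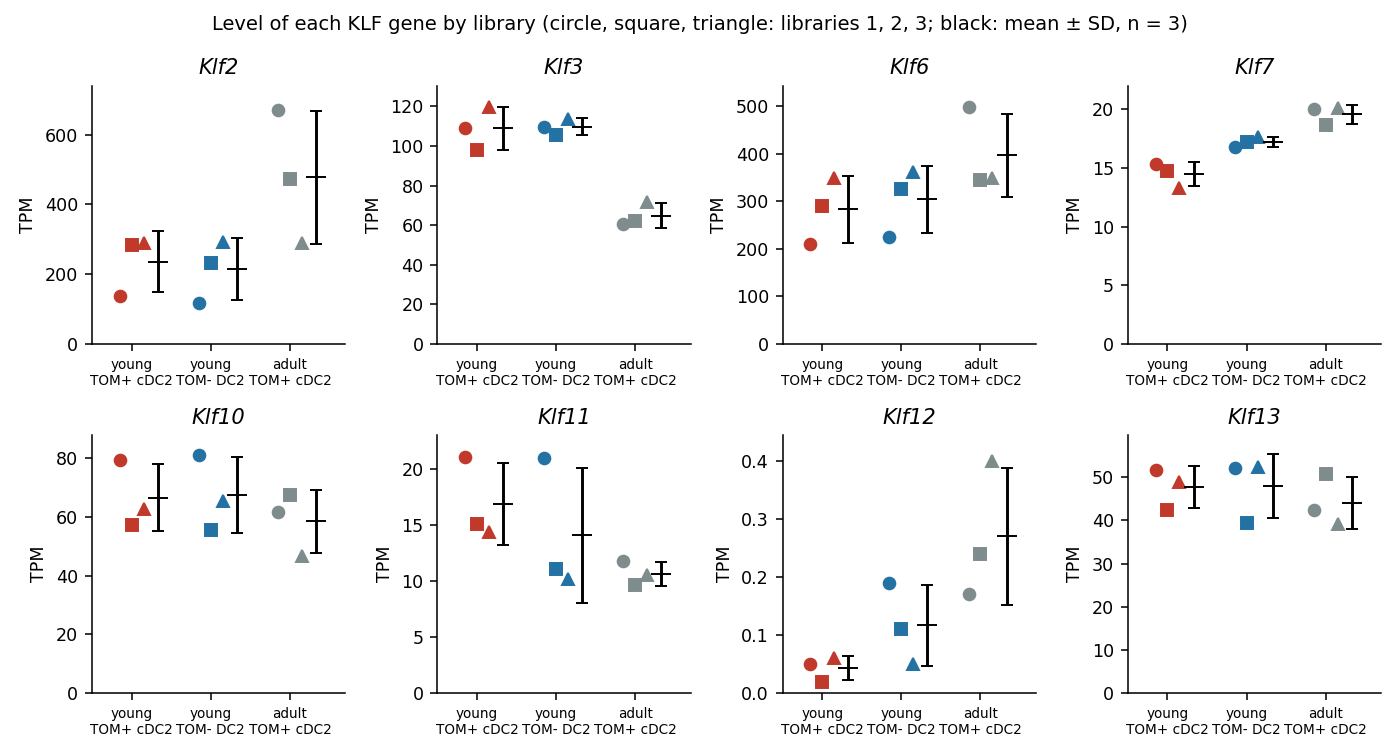
Level of the 8 KLF genes in TPM (vertical axes, linear, each from 0) in young TOM+ cDC2 (red), young TOM- DC2 (blue) and adult TOM+ cDC2 (gray). Circles, squares and triangles are libraries 1, 2 and 3, and black marks are the mean ± SD (n = 3). Klf3 sits at 97.8 to 119.9 TPM in young libraries and at 60.4 to 71.9 TPM in adults, while the circles of the young groups are lowest for Klf2 and Klf6 and highest for Klf11.

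The summed level of the 8 genes was 622, 802 and 897 TPM in young TOM+ cDC2, 625, 787 and 912 TPM in young TOM- DC2 and 1364, 1026 and 826 TPM in adults, so the groups overlapped. Klf2 and Klf6 contributed 55.6%, 71.7% and 71.1% of this sum in young TOM+ cDC2, 55.0%, 70.9% and 71.6% in young TOM- DC2 and 85.6%, 79.7% and 77.2% in adults. Every adult library was thus above every young library in this share. The share of Klf6 alone was close in the 3 groups (36.3% ± 2.64, 39.0% ± 2.68 and 37.4% ± 4.44, SD, n = 3), and that of Klf2 was 29.8% ± 7.03 and 26.8% ± 6.91 in young TOM+ and TOM- cells and 43.4% ± 7.50 in adults. Klf3 took 12.2% to 17.6% in the 6 young libraries and 4.43% to 8.70% in adults. The ratio of Klf2 to Klf6 was 0.818 ± 0.162 in young TOM+ cDC2, 0.683 ± 0.143 in young TOM- DC2 and 1.18 ± 0.310 in adults (SD, n = 3). Adult library 3, at 0.826, lay within the young range of 0.526 to 0.975.

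**Figure D2:**
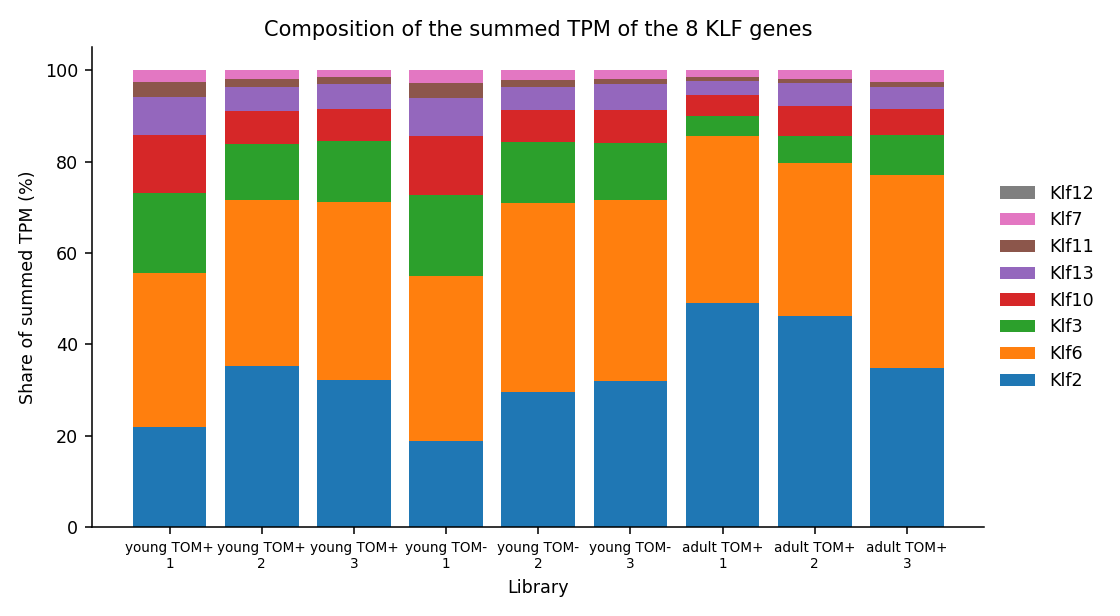
Share of each KLF gene in the summed TPM of the 8 genes (vertical axis, percent) in each of the 9 libraries (horizontal axis). Klf2 (blue) and Klf6 (orange) fill 55.0% to 71.7% of the bar in young libraries and 77.2% to 85.6% in adult libraries.

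The comparison of young TOM+ cDC2 with young TOM- DC2 addressed whether DC2 with and without a history of Clec9a expression differed at the same age. None of the 8 genes passed the test (edgeR's quasi-likelihood test on read counts, Benjamini-Hochberg adjusted p under 0.05 over all tested genes). Of all 14452 genes, 1.60% passed. At an unadjusted p under 0.05, only Klf7 qualified of the 8, where 1355 of the 14452 tested genes did. DESeq2 and limma also passed no KLF gene. The median log2 fold change of the 8 genes was 0.02 and that of all tested genes 0.00.

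Klf7, an activator best known from neurons and blood progenitors, was measured at 15.3, 14.7 and 13.3 TPM in young TOM+ cDC2 and at 16.7, 17.2 and 17.6 TPM in young TOM- DC2. All 3 TOM+ libraries were below all 3 TOM- libraries, which made Klf7 the 1 gene of 8 whose groups did not overlap, where 14.4% of all tested genes did not. Its log2 fold change was -0.26 (SE 0.11, unadjusted p = 0.040, edgeR adjusted p = 0.48), and it was not called with any alternative setting tried. Klf11, a TGF-beta-inducible repressor that works through SIN3A, had 21.1, 15.1 and 14.4 TPM in TOM+ cDC2 and 21.1, 11.1 and 10.2 TPM in TOM- DC2. The first libraries of both groups were level, and the other 2 pairs, matched by the number in their deposited names, differed by 0.44 and 0.50 on the log2 TPM scale. The log2 fold change of Klf11 was 0.31 (SE 0.21, edgeR adjusted p = 0.77). With the name number as a replicate block it passed, with 0.34 and an adjusted p of 0.043 over 9 libraries and of 0.0085 over the 6 young libraries alone.

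Klf2 was at 136, 284 and 288 TPM in young TOM+ cDC2 and at 119, 233 and 292 TPM in young TOM- DC2. Library 1 was lowest in both groups and the groups overlapped over nearly their whole range. The difference of 0.16 (log2, SE 0.38, edgeR adjusted p = 0.97) was smaller than the spread between libraries. Blocked by name number among the 6 young libraries, it was 0.18 with an adjusted p of 0.018, and the block over 9 libraries did not bring it past the threshold. The number of all genes passing rose from 231 without the block to 949 with it over 9 libraries and 1735 among the young libraries, so the blocked calls stand against a larger background. For Klf3, Klf6, Klf10 and Klf13 the log2 fold changes lay between -0.07 and 0.02, with SEs of 0.09 to 0.23. Klf12, a CtBP-binding repressor, was read only 4, 1 and 4 times in TOM+ cDC2 and 9, 6 and 4 times in TOM- DC2, and its log2 fold change of -1.17 (SE 0.69, edgeR adjusted p = 0.70) was not resolved at this depth.

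Young against adult TOM+ cDC2 asked how the same TOM+ population differed with age. Klf3 was higher in young cells, and Klf2, Klf7 and Klf12 were lower. Thus 1 of 8 genes passed upward, where 21.0% of all tested genes did, and 3 of 8 passed downward, where 19.5% did. Klf2 and Klf12 were also beyond 2-fold, 2 of 8 against 12.8% of all genes. TPM of the groups did not overlap for 5 of 8 genes (Klf2, Klf3, Klf7, Klf11 and Klf12), against 52.1% of all genes. The median log2 fold change of the 8 genes was -0.29, and that of all tested genes 0.05.

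Klf3, a repressor that recruits CtBP and shapes B cell and erythroid maturation, was measured at 109, 97.8 and 119.9 TPM in young TOM+ cDC2 and at 60.4, 62.1 and 71.9 TPM in adults. Every young library exceeded every adult library. The difference was 0.62 on the log2 scale (SE 0.10, 1.54-fold, edgeR adjusted p = 0.00026). The call of Klf3 held, in the same direction, in all 20 alternatives run, with log2 fold changes of 0.51 to 0.75. Overlap with a non-coding gene on the opposite strand and an unclassified transcript on its own strand is annotated for Klf3, and counting used no strand.

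Klf2 was at 136, 283.86 and 288.38 TPM in young TOM+ cDC2 and at 670.1, 473 and 288.44 TPM in adults. Adult library 3 was level with young libraries 2 and 3, so the groups were separated only by the last decimals, and the difference was carried by young library 1 and adult libraries 1 and 2. It amounted to -1.15 on the log2 scale (SE 0.39, 2.21-fold lower in young, edgeR adjusted p = 0.033). Without adult library 1 it fell to -0.80 (adjusted p = 0.15), without young library 1 to -0.85 (adjusted p = 0.085), without adult library 2 it was -1.15 (adjusted p = 0.074), and without the first library of all 3 groups it was -0.51 (adjusted p = 0.067). With limma on log2(TPM + 1) the adjusted p was 0.085. Adjusted p values ran from 1.6e-06 to 0.15 over the 20 alternatives, of which 14 passed.

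Klf7 was at 15.3, 14.7 and 13.3 TPM in young TOM+ cDC2 and at 20.0, 18.6 and 20.1 TPM in adults, with no overlap. Its log2 fold change was -0.58 (SE 0.11, 0.667 of the adult level, edgeR adjusted p = 0.0014), and all 20 alternatives passed. Klf12 was at 0.05, 0.02 and 0.06 TPM in young cells, from 4, 1 and 4 reads, and at 0.17, 0.24 and 0.40 TPM in adults, from 7, 10 and 22 reads. The fitted difference was -2.59 (SE 0.65, edgeR adjusted p = 0.0070), and it passed in the 19 alternatives that tested the gene. At so few reads the size of the change was poorly fixed, and it ranged from -3.04 to -0.28 over these alternatives, the smallest value coming with a pseudocount of 1 TPM, which is above the level of Klf12. Non-coding genes are annotated on the opposite strand of Klf7 and Klf12, whose reads could not be told apart.

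Klf6, a broadly expressed activator of injury and inflammatory responses, was at 209, 291 and 349 TPM in young TOM+ cDC2 and at 497, 344 and 349 TPM in adults. Young library 3 was level with adult libraries 2 and 3. The log2 fold change of -0.61 (SE 0.23) missed the threshold with an edgeR adjusted p of 0.054, and 10 of 20 alternatives passed, with adjusted p values between 0.002 and 0.23. Klf11 was at 21.1, 15.1 and 14.4 TPM in young and at 11.8, 9.66 and 10.6 TPM in adult TOM+ cDC2. All young libraries were above all adult ones, yet the difference of 0.53 (SE 0.21, edgeR adjusted p = 0.069) did not pass, and 5 of 20 alternatives passed. Among these was the fit without library 1 of young TOM- DC2, a group outside this comparison whose high Klf11 value enters the shared spread, with an adjusted p of 0.0072.

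Klf10, a TGF-beta-inducible factor that dampens proliferation, was at 79.2, 57.3 and 62.7 TPM in young TOM+ cDC2 and at 61.7, 67.2 and 46.6 TPM in adults. Klf13, which drives the chemokine gene Ccl5 in T cells, was at 51.7, 42.5 and 49.0 TPM in young and at 42.3, 50.6 and 39.1 TPM in adult cells. For both genes the groups overlapped. The log2 fold changes were 0.04 (SE 0.15, edgeR adjusted p = 0.86) for Klf10 and 0.01 (SE 0.13, adjusted p = 0.98) for Klf13, and their sign changed with the scaling, the libraries or the replicate block used. Of 20 alternatives 1 passed for Klf10, the replicate block, with the opposite sign, and none for Klf13. A protein-coding gene and a non-coding transcript are annotated on the opposite strand of Klf13, whose reads could not be told apart.

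**Figure D3:**
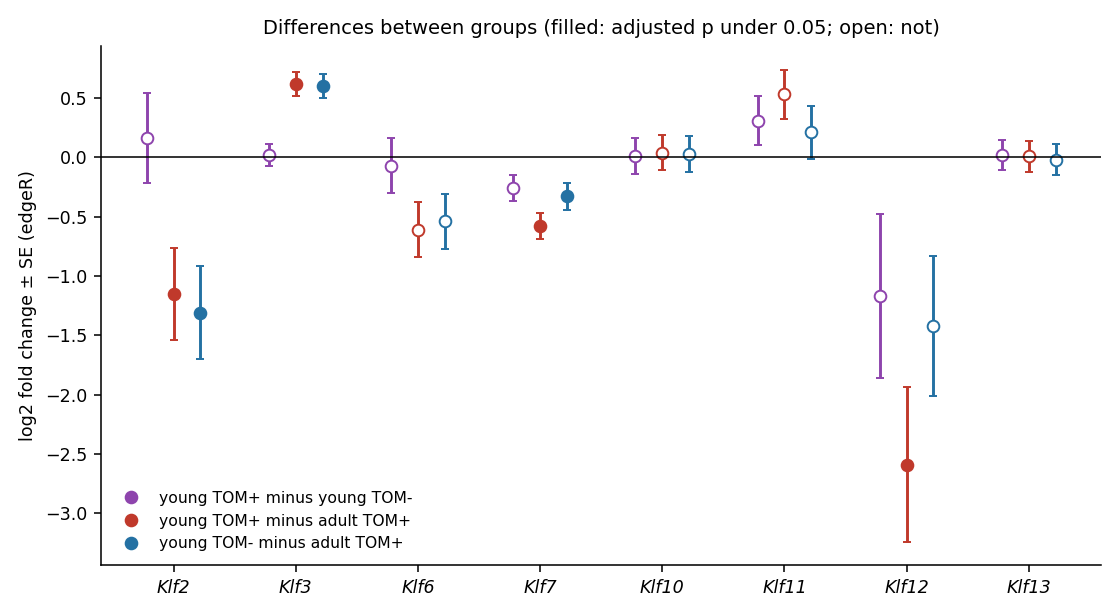
log2 fold change ± SE from edgeR (vertical axis) for the 8 KLF genes in young TOM+ against young TOM- cells (purple), young TOM+ against adult TOM+ cells (red) and young TOM- against adult TOM+ cells (blue). Filled points have an adjusted p under 0.05, open points do not. Klf3 lies at 0.62 and 0.60 in the comparisons with adults, Klf2 at -1.15 and -1.31 and Klf7 at -0.58 and -0.33, and no purple point is filled.

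Young TOM- DC2 were compared with the same adult TOM+ libraries, so these values share their controls with those above and are not an independent repeat. Klf3 passed upward, 1 of 8 genes against 19.4% of all genes tested, and Klf2 and Klf7 passed downward, 2 of 8 against 16.9%. Klf2 was the 1 gene of 8 beyond 2-fold, where 11.3% of all genes were. Groups did not overlap for 2 of 8 genes (Klf3 and Klf7), against 50.1% of all genes. The median log2 fold change was -0.17 for the 8 genes and 0.07 for all genes.

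In young TOM- DC2 Klf3 was at 109.8, 105 and 114 TPM, above every adult library (log2 fold change 0.60, SE 0.10, 1.52-fold, edgeR adjusted p = 0.00041), and the call held in all 20 alternatives. For Klf2 the log2 fold change was -1.31 (SE 0.39, 2.48-fold lower in young, edgeR adjusted p = 0.020). The highest TOM- library, at 292 TPM, was above the lowest adult one, at 288 TPM. Without adult library 1 the value was -0.97 (adjusted p = 0.096), without adult library 2 -1.31 (adjusted p = 0.050, just missing the threshold), and with limma on log2(TPM + 1) -1.17 (adjusted p = 0.053), while 16 of 20 alternatives passed. Klf7, at 16.7 to 17.6 TPM, was below the adult range of 18.6 to 20.1 TPM, with -0.33 (SE 0.11, 1.25-fold lower, edgeR adjusted p = 0.038). That call was lost in 14 of 20 alternatives, among them the fits without any one of the 3 young TOM- libraries (adjusted p = 0.13, 0.065 and 0.052), without young TOM+ libraries 1 or 2 (0.052 and 0.053) and without adult libraries 1 or 3 (0.11 and 0.060). Klf7 was thus ordered young TOM+ below young TOM- below adult TOM+ without overlap, and the step between the young groups did not pass the test. Klf12 (-1.42, SE 0.59, edgeR adjusted p = 0.080), Klf6 (-0.54, adjusted p = 0.092) and Klf11 (0.21, adjusted p = 0.47) did not pass. Klf10 was at 81.01, 55.6 and 65.2 TPM and Klf13 at 52.2, 39.5 and 52.5 TPM in young TOM- DC2, both overlapping the adult range.

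The 8 genes fell into sets by their course over the 9 libraries, described by Pearson's r of log2(TPM + 1) without a test, since libraries of a group and the first libraries share much of their variation. Klf2 and Klf6 were most alike (r = 0.921), followed by Klf10 and Klf13 (r = 0.859) and by Klf7 and Klf12 (r = 0.741). Klf6 and Klf11 (r = -0.794) and Klf3 and Klf7 (r = -0.764) ran in opposite directions. In the first library of both young groups Klf2 and Klf6 were at their lowest and Klf10 and Klf11 at their highest. In adults the first library held the highest Klf2 and Klf6, whereas Klf10 was highest in library 2.

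**Figure D4:**
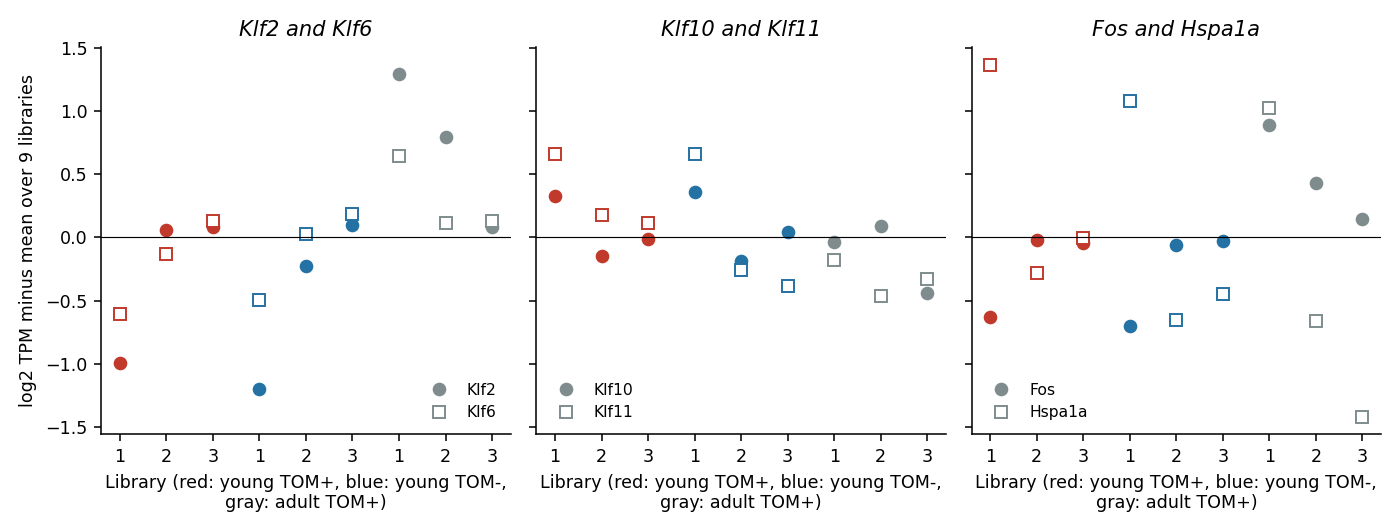
log2 TPM of each gene minus its mean over the 9 libraries (vertical axis) for libraries 1 to 3 of each group (red young TOM+, blue young TOM-, gray adult TOM+). Filled circles are Klf2, Klf10 and Fos, open squares Klf6, Klf11 and Hspa1a. In both young groups Klf2, Klf6 and Fos are lowest and Klf10, Klf11 and Hspa1a highest in library 1, while in adults Klf2, Klf6, Fos and Hspa1a are all highest in library 1.

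Among 8978 genes with a mean of at least 5 TPM, those whose course over the 9 libraries was most like that of Klf2 were Dusp1 (r = 0.990), a phosphatase that ends MAP kinase signalling, and Fos (r = 0.987), an AP-1 subunit. Fos was at 1624, 2479 and 2435 TPM in young TOM+ cDC2, at 1541, 2408 and 2461 TPM in young TOM- DC2 and at 4660.1, 3396 and 2785 TPM in adults. Its order of libraries in adults was that of Klf2, a likeness by which it was chosen. Both are on a list of 19 immediate early and heat shock genes that respond to tissue dissociation, of which 0 passed in either direction between young groups, 12 were lower in young than in adult TOM+ cDC2 (median -0.71) and 13 lower in young TOM- DC2 than in adults (median -0.82), with none higher. The summed level of this list was 19558 to 22769 TPM in young TOM+ cDC2, 18646 to 22875 TPM in young TOM- DC2 and 25776 to 36227 TPM in adults, and its part in the Klf2 and Klf6 values was not tested. Klf6 was most like Tsc22d3 (r = 0.992), the glucocorticoid-induced gene GILZ, and Sqstm1 (r = 0.954), an autophagy receptor.

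Klf3 was most like Tmem18 and Nsmce2 (both r = 0.992), a nuclear membrane protein gene and a SUMO ligase gene of the SMC5/6 complex. Tmem18 was at 11.8 to 14.8 TPM in young libraries and at 6.9 to 8.7 TPM in adults. Klf7 was most like Prmt2 (r = 0.977), an arginine methyltransferase gene, and Tmem158 (r = 0.971). Prmt2 was at 2.7 to 4.2 TPM in young TOM+ cDC2, 5.9 to 6.6 TPM in young TOM- DC2 and 9.2 TPM or more in adults. It was chosen for its likeness to Klf7 over these same libraries, so its order of groups adds no separate evidence. Klf11 was most like Spib (r = 0.980), an ETS factor gene of B cells and plasmacytoid dendritic cells, and Rhot1 (r = 0.974), and Klf10 was most like Ascc2 (r = 0.959) and Pdcd6ip (r = 0.958). For Klf13 the closest genes were Eef2 (r = 0.942) and Phrf1 (r = 0.937), and for Klf12, at its few reads, Clcn4-2 (r = 0.975) and Mysm1 (r = 0.971).

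The rest of the KLF and SP family, which binds the same kinds of sites, comprised 18 listed genes, of which 12 were tested. None passed between the young groups. Between young and adult TOM+ cDC2 1 was higher (Sp3) and 3 were lower (Klf9, Klf14 and Sp4), and between young TOM- DC2 and adults 1 was higher (Sp3) and 4 were lower (Klf8, Klf9, Sp1 and Sp4). Of all tested genes, 21.0% passed as higher and 19.5% as lower in young TOM+ cDC2 against adults. For young TOM- DC2 these shares were 19.4% and 16.9%. Sp3, which shares the GC box with Sp1, was at 45.5 to 53.9 TPM in young TOM+ cDC2 and 28.6 to 34.3 TPM in adults (0.48, SE 0.10, edgeR adjusted p = 0.0018), and thus moved in the direction of Klf3. Klf9 (-1.79, SE 0.28, adjusted p = 0.00030) and Sp4 (-0.63, SE 0.12, adjusted p = 0.0016) were lower in young TOM+ cDC2 than in adults. Klf4, at a mean of 116, 101 and 110 TPM in young TOM+, young TOM- and adult cells, did not pass in any comparison, nor did Sp2 (67.1, 64.4 and 58.2 TPM) or Klf16 (9.11, 8.84 and 9.23 TPM). Klf8 (-0.48, adjusted p = 0.027) and Sp1 (-0.30, adjusted p = 0.046) passed only in the fit of young TOM- DC2 against adults, and whether that differed from TOM+ cells is the comparison of the young groups, in which their log2 fold changes were 0.10 and 0.09 (adjusted p = 0.94 and 0.92). Klf14 was listed at 0 in all young TOM+ libraries and at 0.04 to 0.14 TPM in adults, from 3, 2 and 1 reads. Its call thus rests on very few reads.

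Of the 11 corepressor and coactivator genes through which KLFs act, 0 passed between the young groups, 3 were higher (Hdac2, Ctbp2 and Wdr5) and 3 lower (Sin3a, Crebbp and Kat2b) in young than in adult TOM+ cDC2, and none was beyond 2-fold. Of all tested genes, 21.0% passed as higher and 19.5% as lower in young TOM+ cDC2 against adults. For young TOM- DC2 these shares were 19.4% and 16.9%. Ctbp2, whose protein is a partner of Klf3 and Klf12, rose with Klf3 in young TOM+ cDC2 (20.1 against 10.8 TPM, 0.81, SE 0.11, edgeR adjusted p = 0.00010). The other CtBP gene of the list, Ctbp1, was at a higher level and did not pass (194.9 against 170.1 TPM, 0.08, SE 0.08, edgeR adjusted p = 0.49). In young TOM- DC2 against adults 3 were higher (Hdac1, Ctbp2 and Wdr5) and the same 3 lower. Of 13 genes that induce Klf2 or turn over its protein, 4 were higher (Mapk7, Mef2a, Wwp1 and Smurf1) and 2 lower (Map3k2 and Foxo3) in young than in adult TOM+ cDC2, and 1 higher (Mapk7) and 4 lower (Map3k2, Map3k3, Foxo1 and Foxo3) in young TOM- DC2 than in adults. Mapk7 encodes ERK5 and rose in young cells, in which Klf2 was lower. Foxo3, a FOXO factor gene, was lower in young TOM+ cDC2, at 2.71 to 3.10 TPM against 6.05 to 9.03 TPM in adults (-1.46, SE 0.19, edgeR adjusted p = 9.0e-05). Foxo1, the other FOXO gene of the list, was at a higher level and did not pass in TOM+ cells (22.2 against 23.0 TPM, -0.18, SE 0.11, edgeR adjusted p = 0.21). The part of these genes in the Klf2 values was not tested.

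Of the genes S1pr1, Itgb7, Thbd and Nos3, known as Klf2 targets in lymphocytes or endothelium, none passed as lower in young cells with Klf2. Nos3, the endothelial nitric oxide synthase, was higher in young TOM+ (1.23, SE 0.45, edgeR adjusted p = 0.047) and young TOM- cells (1.42, SE 0.45, adjusted p = 0.027) than in adults, at levels of 0.48 to 0.83 TPM against 0.19 to 0.32 TPM. S1pr1 was under 1 TPM in all libraries. Of 12 genes of TGF-beta signalling, the pathway that induces Klf10 and Klf11, 2 were higher (Smad3 and Id1) and 6 lower (Tgfbr1, Smad4, Smad7, Skil, Tgif1 and Id2) in young than in adult TOM+ cDC2, whereas neither Klf10 nor Klf11 passed. Of all tested genes, 21.0% passed as higher and 19.5% as lower in young TOM+ cDC2 against adults. For young TOM- DC2 these shares were 19.4% and 16.9%. Smad7, an inhibitory SMAD, was at 33.2 to 35.4 TPM in young TOM+ cDC2 and 63.1 to 81.4 TPM in adults (-1.17, SE 0.13, edgeR adjusted p = 1.8e-05), and Id1, a BMP target, was at 2.34 to 5.92 TPM against 0.76 to 1.18 TPM (2.12, SE 0.53, adjusted p = 0.0068). In young TOM- DC2 against adults 2 were higher (Smad3 and Id1) and 3 lower (Smad4, Smad7 and Skil). Between the young groups no gene passed in the lists of corepressors and coactivators, Klf2 regulators and TGF-beta signalling.

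Proliferation genes moved with age beside the KLF genes. Of 12 such genes, 11 were higher in young than in adult TOM+ cDC2 (median 1.35) and 11 in young TOM- DC2 (median 1.16), with summed levels of 1777 to 1838 TPM in young TOM+ cDC2, 1627 to 1690 TPM in young TOM- DC2 and 717 to 887 TPM in adults. Marker sums of other cells also differed with age. In young TOM+ cDC2 against adults they were 174 to 223 against 101 to 153 TPM for 8 macrophage genes, 62.3 to 71.4 against 43.8 to 57.4 TPM for 8 B cell genes, 262 to 289.9 against 179 to 203 TPM for 6 monocyte genes without the immediate early gene Nr4a1, and 104 to 109 against 122 to 164 TPM for 6 pDC genes. The sum of 11 cDC2 genes was 61769 to 66003 TPM in young TOM+ cDC2 and 92806 to 96112 TPM in adults, with 8 genes lower and 2 higher in young, and Esam, which marks a subset of splenic cDC2, was 4.62-fold lower in young (19.0 against 80.03 TPM, log2 fold change -2.21, SE 0.21, edgeR adjusted p = 7.2e-06). The part of these lists in the age differences of Klf2, Klf3, Klf7 and Klf12 was not tested. The share of reads on no annotated gene feature was also higher in adults (15.2% to 17.1%) than in young libraries (8.84% to 12.8%).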

How the data were processed

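mRNA was measured in 9 libraries of sorted splenic DC2 (live, autofluorescence-negative, MHCII+ CD11c+ CD11b+, TOM+ or TOM-), made with SMART-seq chemistry that keeps no strand. Groups were taken from the sample labels. The members and gene lists were chosen with earlier results of these data known.

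The authors aligned reads to mm10 with STAR and deposited its read counts per gene. The unstranded column was used and 2 stranded columns were not. STAR's 4 summary lines (reads unmapped, multimapping, on no feature or ambiguous, 26.1% to 31.6% of all reads) stayed out of library sizes and tests. The authors also deposited RSEM expected counts, which were rounded for an alternative fit, and RSEM TPM, scaled to a fixed total per library, which were used for levels. Deposited FPKM were not used. Tool versions are not given in the sources used here.

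Genes averaging 1 or more reads per library were tested in R 4.3.3 with edgeR 4.0.16 (quasi-likelihood, TMM, all libraries in 3 groups, Benjamini-Hochberg). Passed means an adjusted p under 0.05. Libraries of a group may share litters or sorts, so p-values measure the spread between libraries. Alternatives were DESeq2 1.42.0 with apeglm 1.24.0, limma 3.58.1 on log2(TPM + 1) or log2(TPM + 0.1), other filters and size factors, RSEM counts, a replicate block and leaving out libraries. Tests were tried on simulated data. No 2 libraries of a group were copies (lowest chi-square per gene 8.74).

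Library names carry a number (81, 91 or 92 in both young groups, 91, 92 or 95 in adults) whose meaning the sources do not give. Deviations from the group means of same-numbered young TOM+ and TOM- libraries correlated with r = 0.463, 0.134 and 0.299 over 14452 genes, so these numbers were taken to pair the young libraries, although TOM+ 92 and TOM- 91, of different numbers, also correlated with r = 0.183. With adults only 2 numbers are shared. Named genes were the 8 members, other KLF and SP genes that passed or exceeded 1 TPM, genes beyond 2-fold in the pathway lists (at most 4 a list), and the 2 genes most like each member. Ctbp2, Mapk7 and other list genes that passed within 2-fold, and Ctbp1, which did not pass, were named after their values were seen. A listed gene is not reported here.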

Additional observations from a re-analysis of the deposited data

How the results depend on the processing

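The call of Klf3 against adults held in all 20 alternatives in each of the 2 comparisons, as did the calls of Klf7 and Klf12 between young and adult TOM+ cDC2 (20 and 19 alternatives). Of the 485 alternative log2 fold changes of the 8 genes, 386 kept direction and side of the threshold, 24 lost it, 24 gained it and 51 changed sign. The causes were not tested. Depth limited Klf12, which was left out at an average count of at least 10.

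Between the young groups 231 genes passed, 369 with DESeq2, 949 with the replicate block over 9 libraries (1 of the 8 genes, Klf11) and 1735 with the block in the young libraries alone (2 of the 8, Klf2 and Klf11), and 147 to 251 with 1 library left out. With limma the log2 fold changes on TPM + 1 and TPM + 0.1 were -0.0143 and -0.0145 for Klf3, -0.0149 and -0.0151 for Klf10 and -0.00278 and -0.00268 for Klf13. Leaving out 1 library gave -0.15 to 0.46 for Klf2, -0.0669 to 0.0759 for Klf3, -0.28 to 0.13 for Klf6, -0.0907 to 0.12 for Klf10 and -0.0794 to 0.11 for Klf13.

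Between young and adult TOM+ cDC2 Klf13 was at -0.0191 with RLE size factors, -0.0157 with DESeq2, -0.0238 at an average count of at least 10 and -0.0452 with RSEM counts. Leaving out 1 library gave -0.12 to 0.16 for Klf10 and -0.10 to 0.13 for Klf13. Without the first library of both young groups, an alternative added after the data were seen like the next one and the young-only block, Klf10 and Klf13 were at -0.0859 and -0.0382, and without the first library of all 3 groups at -0.0178 and -0.0291.

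Between young TOM- DC2 and adults 2 or more of the 8 genes passed except with limma at either pseudocount and without adult library 1 (1 gene, Klf3), and leaving out 1 library gave 1 to 3. Klf10 was at -0.000216 with RLE, -0.000516 with DESeq2 and -0.00167 with RSEM counts, and Klf13 at 0.120 and 0.123 with limma. Leaving out 1 library gave -0.13 to 0.15 for Klf10, -0.13 to 0.37 for Klf11 and -0.13 to 0.11 for Klf13. Without the first library of both young groups Klf10 and Klf11 were at -0.0933 and -0.14, and without that of all 3 groups at -0.0295 and -0.0386.

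The replicate block on comparisons with adults, where only 2 numbers are shared and pairing is not shown, gave -0.22 (adjusted p = 0.0078) for Klf10 and -0.12 for Klf13 in TOM+ cells. Against young TOM- DC2 it gave -0.24 (adjusted p = 0.0057) for Klf10 and -0.0699 for Klf11. Under it Klf6 passed in both (adjusted p = 0.0020 and 0.0062) and Klf7 missed the threshold for TOM- cells (adjusted p = 0.060).

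With limma on log2(TPM + 0.1) the median of all genes moved from 0.05 to 0.17 between young and adult TOM+ cDC2 and from 0.07 to 0.22 for TOM- cells, and genes higher in young made up 67.9% and 73.9% of those passing, against 51.9% and 53.5% with edgeR. Relative to that median Klf3 was at 0.57 by edgeR and 0.58 by limma in TOM+ cells.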
